A study of Mus musculus with 16 samples.

Results

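Macrophages of the spleen were followed through 32 of their genes in RNA from purified splenic B cells. The 32 genes were taken by symbol from the 39179 genes of the count table and comprise 15 red pulp macrophage genes, 5 marginal zone macrophage genes and 12 genes of macrophages in general. They were chosen by name and partly selected on their measured counts in these libraries, because several were lower on HAMSA, HAMSB or HAMS than on NP, so their differences from NP are given here as a description, without a test. Of the 32, 31 passed the filter on low counts, as did 15021 genes of the whole table; Gpnmb did not.

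All mice were of the NOD.LT strain, 15 weeks old, and had eaten 1 of 4 diets ad libitum for the 5 weeks before culling. The diets were HAMSA, HAMSB, HAMS and NP, with 4 libraries each (HAMSA 1, 2, 3 and 6; HAMSB 1, 2, 5 and 6; HAMS 1, 4, 5 and 6; NP 1, 3, 4 and 5). NOD mice develop autoimmune diabetes; HAMS is known as high-amylose maize starch and HAMSA and HAMSB as its acetylated and butyrylated forms, although the labels give the abbreviations alone, and the treatment note writes Gordons where the diet label has NP. Spleen lymphocytes were passed through a Miltenyi Pan B cell kit, which removes other cells with antibodies and leaves the B cells untouched, so macrophage RNA here comes from what remained in the B cell fraction. The labels do not give the sex of the mice or the animal behind each library, so p-values measure the spread between these libraries.

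Libraries held between 15053965 and 30723337 counted reads in HAMSA, 34720317 to 46206200 in HAMSB, 31826691 to 37929476 in HAMS and 31707731 to 42752976 in NP. B cell markers were high in every library, the 8 genes of the list summing to 12700 to 14100 CPM in HAMSA, 12200 to 14300 in HAMSB, 11700 to 13900 in HAMS and 12700 to 15200 in NP. CPM stands for reads of a gene scaled to a common library size, here by the trimmed mean of M-values (TMM). The 15 red pulp genes together made up 23.2 to 284 CPM in the 16 libraries, a small part of these B cell preparations.

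Red pulp macrophages take up aged red blood cells, open the haem ring and return its iron to the blood, and they depend on the transcription factor Spi-C. Marginal zone macrophages, at the border of the white pulp, bind particles and microbes from the blood through scavenger receptors and lectins, and the metallophilic ones carry the sialic acid receptor Siglec1. The general genes include the complement C1q chains, receptors for dying cells and the receptor for colony stimulating factor 1, and several of them, such as Lyz2, are also made by monocytes and neutrophils.

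Promoters were read for the members, since PU.1 and Spi-C belong to the Ets factors that bind a purine-rich PU box. Both factors are active in macrophages and B cells. RefSeq promoter sequences (GRCm38.p6) matched 20 of the member genes with 23 promoters, each taken as the 250 bases before the RefSeq start. For each of the 3 groups, the matched member is shown that had at least 5 CPM on average in NP and the lowest mean log2 fold change from it, with PU boxes (GAGGAA on either strand, so TTCCTC on the other) in capitals. The GENCODE starts of C1qc and Fcna lie upstream of the RefSeq ones, so that 151 and 56 bases of their windows fall inside the GENCODE genes, and only the 99 and 194 bases before them are printed. The stretch of Cd163 lies at chr6:124304401-124304650 on the plus strand, that of C1qc at chr4:136893066-136893164 on the minus strand and that of Fcna at chr2:25628031-25628224 on the minus strand, all 5′ to 3′ along the gene.
Cd163: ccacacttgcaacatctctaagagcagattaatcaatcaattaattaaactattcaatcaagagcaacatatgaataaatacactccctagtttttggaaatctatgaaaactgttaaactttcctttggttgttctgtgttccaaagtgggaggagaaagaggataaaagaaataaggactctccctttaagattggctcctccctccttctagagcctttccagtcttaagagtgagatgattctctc
C1qc: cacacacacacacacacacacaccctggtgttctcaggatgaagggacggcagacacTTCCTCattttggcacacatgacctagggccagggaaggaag
Fcna: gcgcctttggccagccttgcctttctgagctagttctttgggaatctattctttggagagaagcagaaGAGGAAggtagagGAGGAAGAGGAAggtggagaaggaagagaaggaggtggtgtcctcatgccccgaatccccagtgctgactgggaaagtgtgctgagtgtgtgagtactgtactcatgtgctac
Fcna held 3 PU boxes, of which a pair stand side by side, C1qc held 1, and Cd163 held 0, in the printed stretch and in the whole window alike. Over all members, 11 of 23 promoters (47.8%) held the PU box, in the genes Apoe, Axl, C1qb, C1qc, Cd5l, Cd68, Fcna, Hs3st2, Marco and Mrc1, against 23.3% of all 32851 promoters of the same length. The AP-1 core TGANTCA, searched on both strands, was in 1 member promoter, that of Cd68, against 6.75% of all promoters. These are matches of letters and were not tested.

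Nearly all members had lower levels in HAMSA, HAMSB and HAMS than in NP, with the median of the red pulp genes furthest from NP and that of the general genes nearest to it. The median log2 fold change of the 31 members over NP was −1.53 in HAMSA, −2.48 in HAMSB and −2.44 in HAMS, where the median of all 15021 genes was 0, 0.01 and 0.01. For 22 members every HAMSA library lay below every NP library (8.67% of all genes), for 23 members every HAMSB library did (3.06%), and for 26 members every HAMS library did (6.55%). No member lay above every NP library in any of these comparisons, where 7.72%, 2.21% and 6.06% of all genes did. Nothing is read from these counts, because the direction helped to choose the members, and the comparisons share the NP libraries.

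The groups of members differed in their medians over NP, but their ranges overlapped, and the ranking is a description only, since the direction helped to choose the members. In HAMSA the log2 fold changes ran from −2.15 to −0.2 in red pulp, −1.86 to −0.97 in marginal zone and −2.19 to 0.76 in general genes. Red pulp genes lay wholly below NP for 14 of 15 members in HAMSA, 14 of 15 in HAMSB and 15 of 15 in HAMS, with median log2 fold changes of −1.73, −2.54 and −2.91. Marginal zone genes did so for 4 of 5, 4 of 5 and 2 of 5 members, with medians of −1.53, −1.85 and −2.23. Of the general genes, 4 of 11, 5 of 11 and 9 of 11 lay wholly below NP, with medians of −0.56, −0.78 and −1.52. In 19 of 31 members all 12 HAMSA, HAMSB and HAMS libraries were below all 4 NP libraries, as in 0.812% of all genes, and these were all red pulp genes but Trf, the 3 C1q chains, Mertk and Fcna. The 19, and the red pulp counts and medians above, include Slc1a3, Hs3st2 and Dysf. Those genes passed the filter through NP and so had to differ from it. Fewer macrophages in the B cell fraction and less of these RNAs per macrophage cannot be told apart in such bulk libraries.

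**Figure D1:**
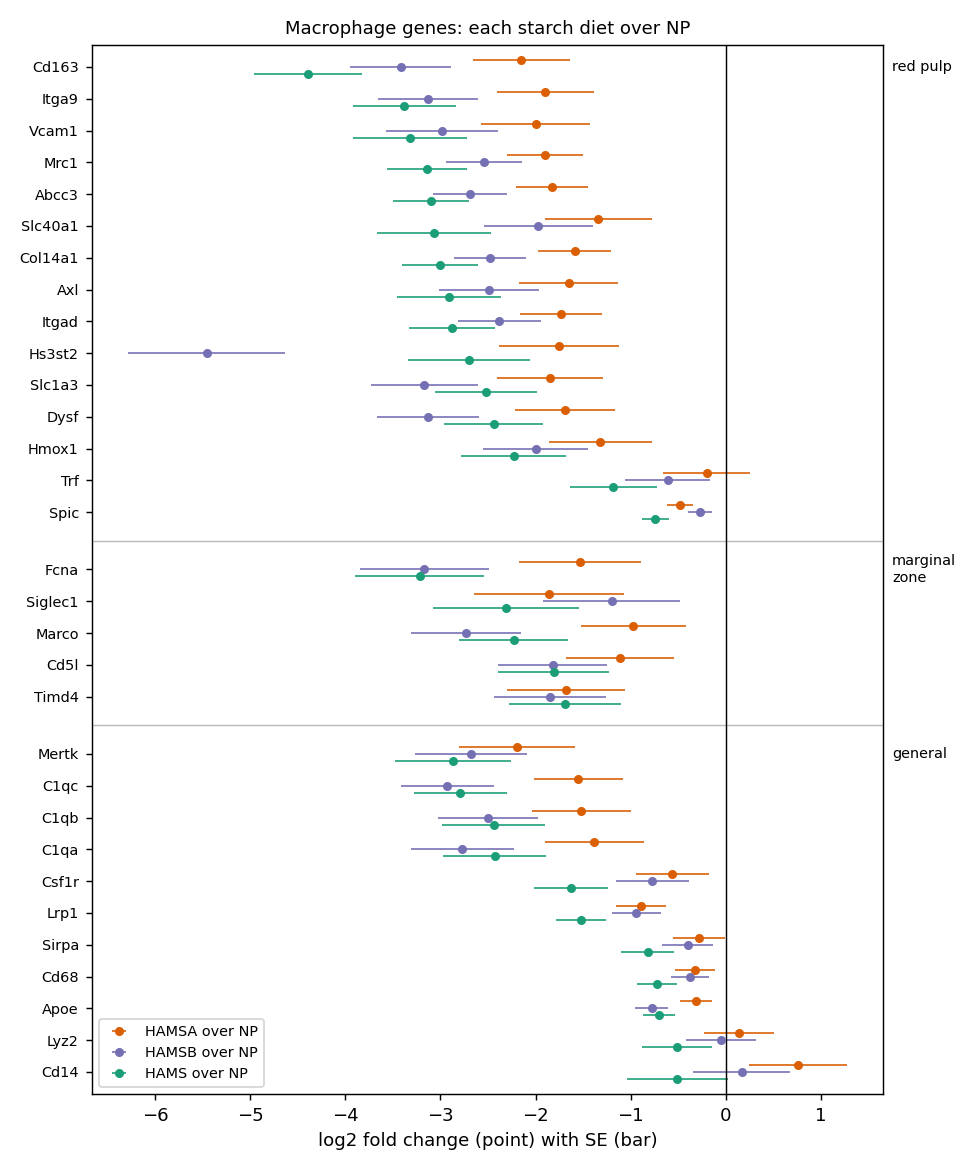
Log2 fold change (x axis) of the 31 tested macrophage genes (rows, by group) in HAMSA, HAMSB and HAMS over NP, 4 libraries a diet; points are edgeR estimates and bars their SE. Red pulp genes other than Spic and Trf lie left of −1, Lyz2 and Cd14 lie between −0.51 and 0.76, and the Hs3st2 point for HAMSB rests on 2 reads in 4 libraries.

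Cd163, the receptor that clears haemoglobin bound to haptoglobin, lay furthest from NP in HAMSB and HAMS among the members other than Hs3st2, and next to Mertk in HAMSA. Its level was 1.35, 2.14, 2.73 and 2.29 CPM in HAMSA, 1.83, 0.9, 0.645 and 0.129 in HAMSB, and 0.674, 0.412, 0.467 and 0.194 in HAMS, against 14.3, 8.91, 7.96 and 6.2 CPM in NP. The lowest NP library was thus above the highest library of the other diets, and the log2 fold changes over NP were −2.15 ± 0.51 (SE), −3.42 ± 0.53 and −4.39 ± 0.57. The reads behind these levels numbered 36 to 42 a library in HAMSA, 6 to 72 in HAMSB, 6 to 25 in HAMS and 266 to 467 in NP. The gene lies on chromosome 6 from 124304656 to 124330527 (GENCODE M21, GRCm38, as for the other positions).

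Vcam1, an adhesion molecule that red pulp macrophages carry, was the second most abundant red pulp gene in NP by CPM. It had 10.6, 14.7, 7.46 and 8.45 CPM in HAMSA, 11.9, 5.33, 2.27 and 1.4 in HAMSB, and 7.04, 3.68, 4.53 and 1.13 in HAMS, against 66.3, 42.2, 32.1 and 24.5 CPM in NP. Mrc1, the mannose receptor, had 2.99, 4.33, 1.93 and 4 CPM in HAMSA, 3.13, 3, 1.49 and 0.863 in HAMSB, and 1.62, 1.05, 1.9 and 1 in HAMS, against 19.8, 11.4, 10.2 and 8.02 CPM in NP. Neither gene overlapped NP in any library, and their log2 fold changes over NP were −2 ± 0.57 and −1.9 ± 0.4 in HAMSA, −2.98 ± 0.59 and −2.54 ± 0.4 in HAMSB, and −3.32 ± 0.6 and −3.14 ± 0.42 in HAMS, Vcam1 first.

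The genes of haem breakdown and iron export followed. Hmox1, haem oxygenase 1, which opens the haem ring, had 12.7, 25.7, 20.6 and 12.1 CPM in HAMSA, 22.3, 14.4, 3.42 and 4.04 in HAMSB, and 16.8, 10.1, 7.65 and 3.04 in HAMS, against 52.9, 52.8, 42.9 and 28.2 CPM in NP. Slc40a1, ferroportin, the exporter of iron from cells, had 9.19, 14.1, 5.66 and 7.25 CPM in HAMSA, 8.83, 11.3, 1.8 and 1.42 in HAMSB, and 4.69, 2.69, 2.25 and 1.23 in HAMS, against 35.4, 22.8, 17.1 and 16.5 CPM in NP. All HAMSA, HAMSB and HAMS libraries were below all NP libraries for both genes. The log2 fold changes over NP of Hmox1 were −1.32 ± 0.54 in HAMSA, −2 ± 0.55 in HAMSB and −2.23 ± 0.55 in HAMS, and those of Slc40a1 were −1.34 ± 0.56, −1.97 ± 0.57 and −3.07 ± 0.6.

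Spic, which encodes Spi-C and is also made by B cells, stood nearer to NP than any other red pulp gene in HAMSB and HAMS. It had 17.2, 17.4, 21.8 and 16.3 CPM in HAMSA, 23.4, 23.7, 17 and 19.6 in HAMSB, and 17.6, 13, 16.4 and 13.5 in HAMS, against 28.3, 24, 23.9 and 24.8 CPM in NP. The libraries did not overlap NP, but the gap in HAMSB was narrow, 23.7 CPM in HAMSB 2 against 23.9 CPM in NP 4, and the log2 fold changes were −0.48 ± 0.14 in HAMSA, −0.27 ± 0.13 in HAMSB and −0.74 ± 0.14 in HAMS. Trf, transferrin, the iron carrier of plasma, was the red pulp gene that overlapped NP in HAMSA and HAMSB. Its level was 0.572 to 1.68 CPM in HAMSA, 0.432 to 1.64 in HAMSB and 0.291 to 0.89 in HAMS, against 1.01 to 1.81 CPM in NP.

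The other red pulp genes with over 1 CPM in every NP library had their means in the order HAMSA, HAMSB, HAMS from high to low, all below NP. Itgad, the integrin alpha D chain, had 5.72, 6.76, 3.2 and 5.15 CPM in HAMSA, 5.88, 4.43, 1.07 and 1.92 in HAMSB, and 3.78, 2, 2.19 and 1.42 in HAMS, against 23.3, 18.7, 15.4 and 11.9 CPM in NP. Axl, a receptor kinase for dying cells, had 5.11, 6.53, 5.59 and 4.7 CPM in HAMSA, 5.67, 4.57, 0.982 and 1.04 in HAMSB, and 4.1, 1.9, 2.25 and 0.872 in HAMS, against 25.3, 19.4, 14.6 and 9.79 CPM in NP. For both genes libraries overlapped between HAMSA and HAMSB and between HAMSB and HAMS, and for Itgad also between HAMSA and HAMS. No HAMSA, HAMSB or HAMS library reached NP for either gene. Abcc3, a transporter of organic anions, had 1.29, 1.39, 1.2 and 1.65 CPM in HAMSA, 1.25, 0.853, 0.449 and 0.475 in HAMSB, and 0.728, 0.856, 0.526 and 0.162 in HAMS, against 5.99, 5.51, 4.52 and 3.61 CPM in NP. Itga9, the integrin alpha 9 chain, had 0.546, 1.04, 1.13 and 0.89 CPM in HAMSA, 0.865, 0.3, 0.196 and 0.151 in HAMSB, and 0.593, 0.349, 0.234 and 0.0646 in HAMS, against 4.2, 3.6, 3.3 and 2.17 CPM in NP. Col14a1, a collagen, had 0.45, 1.1, 0.399 and 0.89 CPM in HAMSA, 0.432, 0.531, 0.168 and 0.367 in HAMSB, and 0.27, 0.285, 0.263 and 0.226 in HAMS, against 3.19, 2.12, 1.81 and 1.35 CPM in NP. None of these 3 genes overlapped NP in any library. The log2 fold changes of the 5 genes over NP ran from −1.59 (Col14a1) to −1.9 (Itga9) in HAMSA, from −2.38 (Itgad) to −3.13 (Itga9) in HAMSB, and from −2.88 (Itgad) to −3.38 (Itga9) in HAMS.

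Slc1a3, Hs3st2 and Dysf were close to the limit of these libraries and passed the filter through NP, so they had to differ from it. The filter asked for 0.286 CPM in 4 libraries, which 2 of the 12 HAMSA, HAMSB and HAMS libraries reached for Slc1a3, a glutamate transporter, 1 for Hs3st2, a heparan sulfate sulfotransferase, and 1 for Dysf, dysferlin, a protein of membrane repair. Hs3st2 had 9, 3, 1 and 4 reads in HAMSA, 1, 0, 1 and 0 in HAMSB, and 4, 6, 4 and 0 in HAMS, against 43, 30, 17 and 13 reads in NP. Slc1a3 had 2, 5, 5 and 2 reads in HAMSA, 5, 3, 2 and 2 in HAMSB, and 9, 2, 4 and 1 in HAMS, against 28, 39, 15 and 23 reads in NP. Dysf had 7, 8, 4 and 2 reads in HAMSA, 7, 6, 0 and 3 in HAMSB, and 5, 9, 4 and 3 in HAMS, against 38, 32, 32 and 29 reads in NP. The reads in NP exceeded those in any other library for each of the 3 genes, but no fold is given for Hs3st2 in HAMSB, where 2 reads were counted in all.

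**Figure D2:**
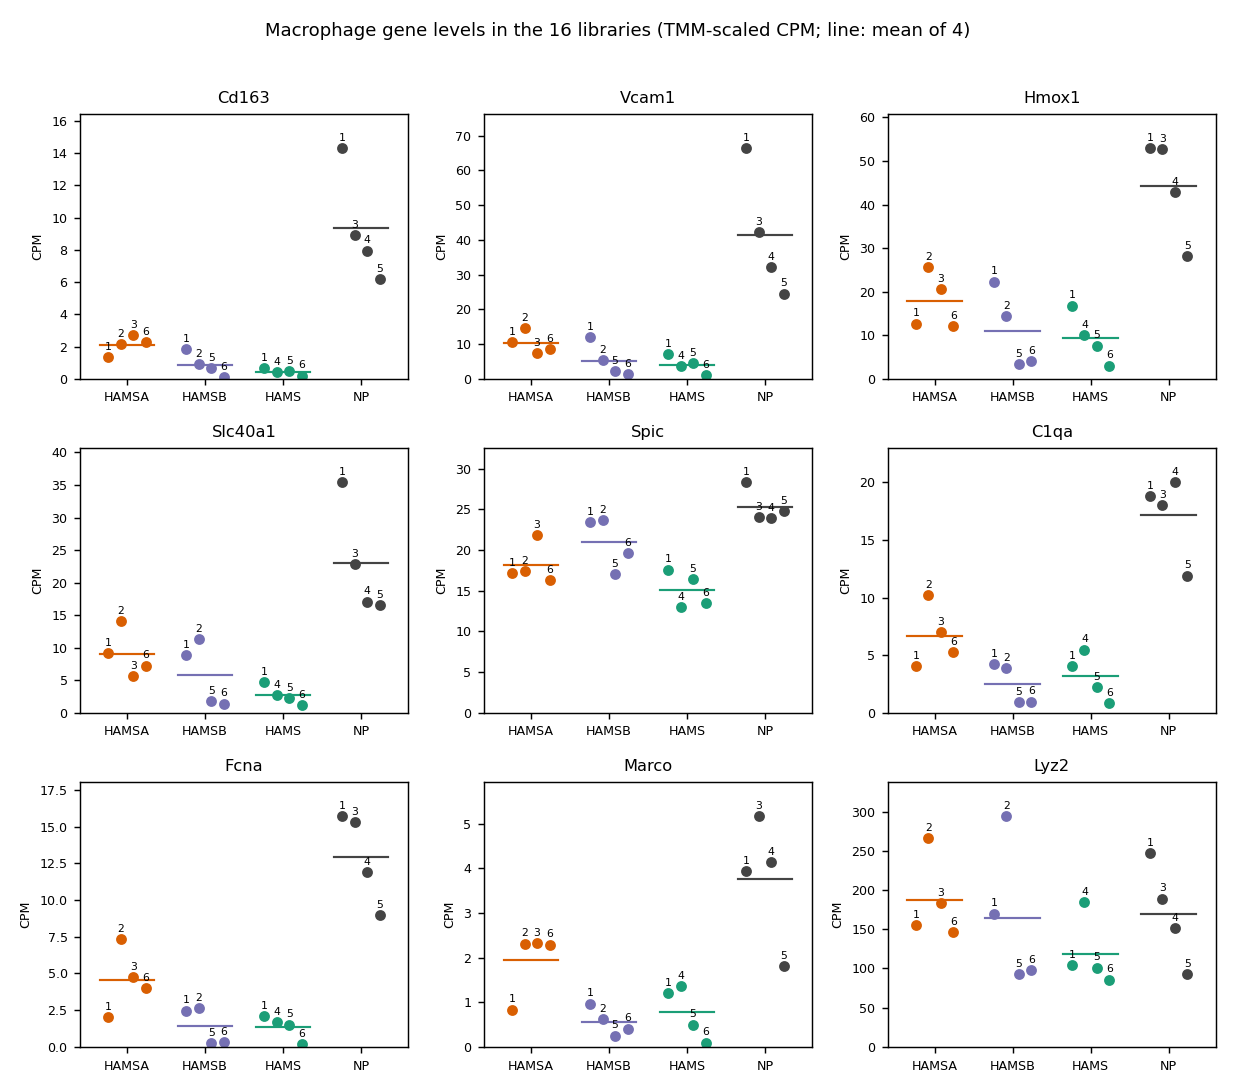
Level (y axis, TMM-scaled CPM, from 0) of 9 macrophage genes in each of the 16 libraries, by diet (x axis); numbers are the labels' replicate numbers and lines the mean of 4 libraries. Every NP library is above every other library for Cd163, Vcam1, Hmox1, Slc40a1, Spic, C1qa and Fcna, whereas Marco overlaps through NP 5 and Lyz2 overlaps in all diets.

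Among the marginal zone genes, Fcna, which encodes the lectin ficolin A, was the most abundant by CPM and the only one separated from NP in all 3 diets. It had 2.02, 7.34, 4.73 and 4 CPM in HAMSA, 2.47, 2.63, 0.281 and 0.345 in HAMSB, and 2.1, 1.68, 1.52 and 0.194 in HAMS, against 15.7, 15.3, 11.9 and 8.95 CPM in NP. Its log2 fold changes over NP were −1.53 ± 0.64 in HAMSA, −3.17 ± 0.68 in HAMSB and −3.22 ± 0.68 in HAMS. Marco, a scavenger receptor that defines marginal zone macrophages, had 0.836, 2.31, 2.33 and 2.29 CPM in HAMSA, 0.967, 0.623, 0.253 and 0.41 in HAMSB, and 1.21, 1.36, 0.497 and 0.0969 in HAMS, against 3.93, 5.16, 4.14 and 1.8 CPM in NP. NP 5 lay within the HAMSA range of Marco, and the log2 fold changes were −0.97 ± 0.55, −2.73 ± 0.58 and −2.23 ± 0.57.

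The remaining marginal zone genes overlapped NP in at least 1 diet. Cd5l, a secreted scavenger-type protein, had 1.29, 2.89, 3.13 and 2.99 CPM in HAMSA, 2.37, 2.65, 0.645 and 0.518 in HAMSB, and 1.35, 3.2, 1.37 and 0.323 in HAMS, against 6.14, 6.49, 6.12 and 3.15 CPM in NP. Siglec1 had 0.514, 0.809, 0.133 and 0.826 CPM in HAMSA, 0.483, 2.56, 0.309 and 0.259 in HAMSB, and 1.11, 0.254, 0.146 and 0.129 in HAMS, against 2.82, 2.67, 1.84 and 1.03 CPM in NP. HAMSB 2 was the one library in which Siglec1 reached the NP range by a wide margin, and the other marginal zone genes of HAMSB 2 did not. Timd4, a receptor for phosphatidylserine on dying cells, had 0.289 to 0.867 CPM in HAMSA, 0.0842 to 1.06 in HAMSB and 0.194 to 1.24 in HAMS, against 1.21 to 2.06 CPM in NP.

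In the general group the 3 chains of complement C1q, which opens the classical pathway, were separated from NP as the red pulp genes were. C1qa had 4.05, 10.2, 6.99 and 5.28 CPM in HAMSA, 4.25, 3.88, 0.954 and 0.971 in HAMSB, and 4.07, 5.48, 2.25 and 0.872 in HAMS, against 18.8, 18, 20 and 11.9 CPM in NP. C1qb had 2.76, 7.68, 4.86 and 4.2 CPM in HAMSA, 4.35, 3.16, 1.23 and 1.08 in HAMSB, and 3.59, 3.9, 2.28 and 0.452 in HAMS, against 17, 15.3, 13.9 and 9.47 CPM in NP. C1qc had 2.86, 7.05, 6.59 and 5.15 CPM in HAMSA, 3.38, 3.09, 0.814 and 0.971 in HAMSB, and 2.94, 3.52, 1.9 and 0.743 in HAMS, against 18.1, 17.6, 16.8 and 10.6 CPM in NP. None of the 3 overlapped NP, and their log2 fold changes over NP lay between −1.38 and −1.55 in HAMSA, −2.5 and −2.93 in HAMSB, and −2.43 and −2.79 in HAMS. The genes are neighbours on the minus strand of chromosome 4, from 136880129 (the end of C1qb) to 136898803 (the start of C1qa), and HAMSB 5, HAMSB 6 and HAMS 6 were the lowest libraries for each of them.

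Mertk, a receptor kinase through which macrophages take up dying cells, was the fourth general gene wholly below NP in all 3 diets. It had 0.546, 1.1, 0.666 and 0.699 CPM in HAMSA, 0.738, 0.946, 0.309 and 0.129 in HAMSB, and 0.566, 0.729, 0.526 and 0.0323 in HAMS, against 5.13, 3.83, 3.09 and 1.66 CPM in NP. Csf1r, the receptor of colony stimulating factor 1, was less far from NP, with 21.6, 30.5, 22.1 and 15.6 CPM in HAMSA, 20.3, 34.7, 12.6 and 10.1 in HAMSB, and 13.7, 14, 8.27 and 6.85 in HAMS, against 51.3, 36.3, 27.4 and 17.5 CPM in NP. Only the HAMS libraries lay wholly below NP for Csf1r, with log2 fold changes of −0.56 ± 0.38 in HAMSA, −0.77 ± 0.38 in HAMSB and −1.63 ± 0.39 in HAMS. Lrp1, an endocytic receptor, had means of 11.5 CPM in HAMSA, 11.1 in HAMSB and 7.46 in HAMS, against 21.3 CPM in NP, and its log2 fold changes were −0.89 ± 0.26, −0.94 ± 0.26 and −1.52 ± 0.26.

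The most abundant general genes by CPM were among those nearest to NP. Lyz2, lysozyme, had 155, 266, 183 and 146 CPM in HAMSA, 170, 294, 93 and 98.2 in HAMSB, and 104, 185, 101 and 85.9 in HAMS, against 247, 189, 151 and 93 CPM in NP. Its libraries overlapped in all 3 comparisons, with log2 fold changes of 0.14 ± 0.37, −0.05 ± 0.37 and −0.51 ± 0.37; Lyz1 is a near-identical copy, so the counts of Lyz2 are uncertain. Sirpa, the receptor for the signal CD47, had 44, 55.5, 57.5 and 39.7 CPM in HAMSA, 52.8, 64.9, 29.2 and 34.5 in HAMSB, and 49, 38.9, 30 and 17.9 in HAMS, against 71.9, 62.3, 55.8 and 49.4 CPM in NP. Apoe, the lipid carrier apolipoprotein E, had 27.8, 36.3, 46.9 and 33.6 CPM in HAMSA, 23.3, 26.2, 25.3 and 29.3 in HAMSB, and 36.1, 29.4, 22.5 and 22 in HAMS, against 40.9, 47.8, 50.6 and 39.8 CPM in NP. Sirpa and Apoe were thus wholly below NP in HAMS, and Apoe also in HAMSB. Cd68, a glycoprotein of the lysosome membrane, had means of 15.6 CPM in HAMSA, 15 in HAMSB and 11.9 in HAMS, against 19.6 CPM in NP. Cd14, a co-receptor for lipopolysaccharide that monocytes and neutrophils also carry, had 1.02 to 4.97 CPM in HAMSA, 0.518 to 4.75 in HAMSB and 1.27 to 1.52 in HAMS, against 1.12 to 2.67 CPM in NP. Gpnmb, a membrane glycoprotein of lipid-laden macrophages, had 0 to 5 reads in HAMSA, 1 to 11 in HAMSB and 0 to 5 in HAMS, against 1 to 5 reads in NP, and was not tested.

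Per kilobase of exon, the members spanned a wide range in NP. Lyz2 stood highest at 129 CPM per kb, ahead of Hmox1 at 25.2, Apoe at 21, C1qa at 16.5 and Cd68 at 15.6, and Gpnmb was lowest at 0.0134 CPM per kb. Cd163 had 0.39 CPM per kb in HAMSA, 0.16 in HAMSB and 0.08 in HAMS, against 1.71 CPM per kb in NP. Lyz2 per kb was 142 in HAMSA, 125 in HAMSB and 90.4 in HAMS, so the most abundant member by this scale was among those nearest to NP.

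The order of the libraries within a diet is given for the members as a description. HAMSB 5 and HAMSB 6 were both below HAMSB 1 and HAMSB 2 for 29 of 31 members, HAMS 6 was the lowest HAMS library for 29 and NP 5 the lowest NP library for 28, while NP 1 was the highest NP library for 24. No share over all genes stands beside these orders, and nothing is read from them. Summed T cell markers were also higher in HAMSB 1 and 2 (206 and 302 CPM) than in HAMSB 5 and 6 (143 and 100). Dendritic cell markers did likewise (90 and 86.9 CPM against 43.5 and 42.6), while platelet markers did not (77.8 and 68.4 against 88 and 172). Summed over the 15 red pulp genes, levels were 68.7, 97.8, 73.8 and 64.8 CPM in HAMSA, 86.7, 71.1, 30 and 31.9 in HAMSB, and 59.3, 37.7, 39.4 and 23.2 in HAMS, against 284, 215, 177 and 140 CPM in NP. The 5 marginal zone genes summed to 4.95 to 14.2 CPM in HAMSA, 1.57 to 9.53 in HAMSB and 0.937 to 7.73 in HAMS, against 16.1 to 31.4 CPM in NP, and the 12 general genes to 275 to 450, 185 to 472 and 150 to 305 CPM, against 262 to 525 CPM in NP. The red pulp and marginal zone sums did not overlap NP, and the general sums did in all 3 diets. Lyz2 weighs heavily in the general sum, with means of 187 of 344 CPM in HAMSA and 170 of 401 CPM in NP. HAMSB 5, HAMSB 6, HAMS 6 and NP 5 share the label numbers 5 and 6, and the labels do not say what the numbers stand for. Within the numbers 1 to 4, a split chosen after seeing the data, 24 members lay wholly below NP in HAMSA (18.2% of all genes), 24 in HAMSB (19.8%) and 30 in HAMS (26.2%). Within the numbers 5 and 6, with 1 NP library and 1 HAMSA library, 28, 29 and 29 members did, where 50.8%, 38.9% and 39.2% of all genes did.

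Comparisons among HAMSA, HAMSB and HAMS were not used to choose the members and were tested with edgeR's quasi-likelihood test and Benjamini-Hochberg adjustment over all 15021 genes. No member passed an adjusted p of 0.05 in any of them. In HAMSA over HAMSB the estimates were nevertheless higher for 29 of 31 members (median log2 fold change 0.69), in HAMSA over HAMS for 31 of 31 (0.98) and in HAMSB over HAMS for 21 of 31 (0.34), where the medians of all genes were 0, 0 and 0.01. Most marker lists of other cells leaned the same way in HAMSA over HAMS. Higher were 11 of 11 erythroid, 12 of 12 neutrophil and 10 of 10 T cell markers. So were 8 of 8 NK cell, 8 of 8 dendritic cell and 7 of 8 monocyte markers. The 8 platelet markers were all lower, as were 6 of 8 B cell markers. In HAMSB over HAMS, all erythroid, neutrophil, T cell and dendritic cell markers were higher. In HAMSA over HAMSB, 5 of 10 T cell and 3 of 8 NK cell markers were.

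For HAMSA over HAMSB the test called 0 members higher and 0 lower, beside 0.586% and 0.193% of all genes. At an unadjusted p under 0.05, 11 members were higher and 0 lower, beside 10.3% and 9.15% of all genes, and DESeq2 called 1 member higher, Marco, beside 2.97% of the genes it tested. Hs3st2 had the smallest adjusted p, 0.09, on the reads given above, and its HAMSA and HAMSB libraries did not overlap (4.65% of all genes were separated in this direction); 0 members lay wholly lower (4.16% of all genes). Marco came next, with a log2 fold change of 1.75 ± 0.59 and an adjusted p of 0.164, followed by C1qc with 1.38 ± 0.48 and 0.174 and by Apoe with 0.47 ± 0.17 and 0.181. Spic and Siglec1 were the members with estimates below 0, −0.2 ± 0.14 and −0.66 ± 0.8.

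For HAMSA over HAMS the test called 0 members and 0% of all genes in either direction, whereas at an unadjusted p under 0.05 there were 16 members higher and 0 lower, beside 6.27% and 5.39% of all genes. Every HAMSA library was above every HAMS library for 9 members (2.7% of all genes) and wholly below for 0 (1.31%). The 9 were Cd163, Mrc1, Vcam1, Slc40a1, Abcc3, Axl, Col14a1, Csf1r and Lrp1, of which the first 7 are red pulp genes. Cd163 had a log2 fold change of 2.24 ± 0.56 with an adjusted p of 0.3, and Col14a1 had 1.41 ± 0.42 with the same adjusted p. Abcc3 followed with 1.27 ± 0.41 and 0.319, Slc40a1 had 1.73 ± 0.58 and 0.321, and Fcna had 1.7 ± 0.67 and 0.38. DESeq2 called 1 member, Cd163, higher, beside 0.446% of the genes it tested.

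For HAMSB over HAMS the test called 0 members, beside 0.433% of all genes higher and 1.24% lower. At an unadjusted p under 0.05, Spic, Csf1r and Lrp1 were higher and Hs3st2 lower, beside 6.69% and 7.4% of all genes. Spic had the smallest adjusted p, 0.112, with a log2 fold change of 0.47 ± 0.14, and was the 1 member that DESeq2 called higher, beside 1.37% of the genes it tested. Slc40a1 had 1.1 ± 0.57 with an adjusted p of 0.417, and the 3 C1q chains lay between −0.34 and −0.06. The libraries overlapped for all members, whereas 3.19% of all genes lay wholly higher and 4.11% wholly lower.

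The medians moved with single libraries. For HAMSA over HAMSB the median was 0.46 without HAMSB 5 or without HAMSB 6, and 1 without HAMSB 2. For HAMSB over HAMS, leaving out HAMSB 1 took the median to −0.01, leaving out HAMSB 2 took it to 0.06 and leaving out HAMS 6 to 0.1, while it was 0.55 without HAMSB 5, 0.53 without HAMSB 6 and 0.55 without HAMS 1. The HAMSA libraries also had a smaller share of reads outside exons (13.8 to 15.9%) than the HAMSB (16.3 to 21.6%), HAMS (14.8 to 20.5%) and NP (17.7 to 19.1%) libraries. With that share as a covariate the median of HAMSA over HAMSB was 0 and that of HAMSA over HAMS was 0.35, and that of HAMSA over NP was −2.44. Within the numbers 1 to 4 the medians were 0.18 for HAMSA over HAMSB, 0.56 for HAMSA over HAMS and 0.42 for HAMSB over HAMS. Within the numbers 5 and 6, with 1 HAMSA library, they were 1.73, 1.51 and −0.25.

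**Figure D3:**
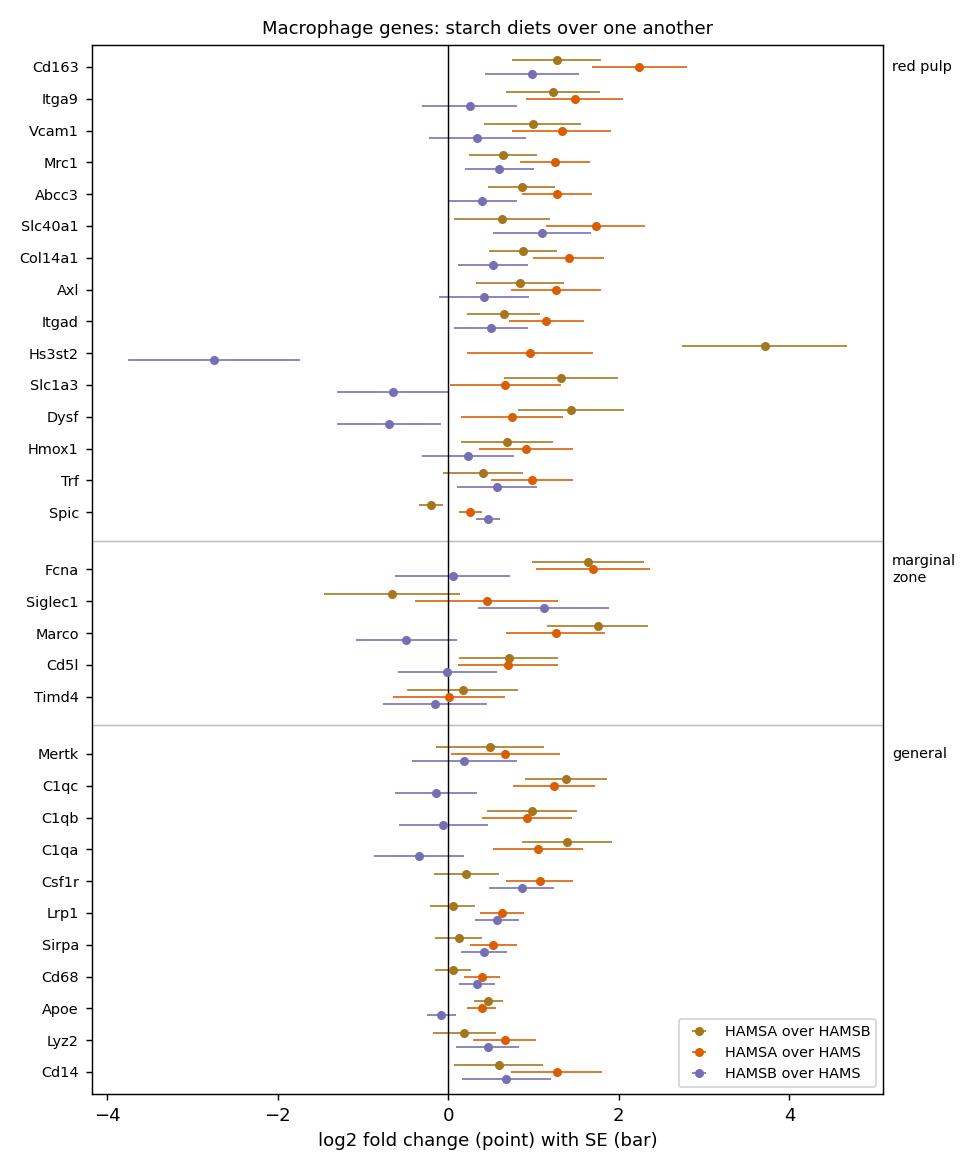
Log2 fold change (x axis) of the 31 tested macrophage genes (rows, by group) in HAMSA over HAMSB, HAMSA over HAMS and HAMSB over HAMS, 4 libraries a diet; points are edgeR estimates and bars their SE. Most points lie right of 0, none passed an adjusted p of 0.05, and the Hs3st2 points that involve HAMSB rest on 2 reads in 4 libraries.

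Other genes of the same functions were taken from lists of haem and iron recycling, macrophage regulators, and macrophage surface and lysosome, none of which holds a member. Of 21, 13 and 22 genes tested, edgeR called 0 in each comparison among HAMSA, HAMSB and HAMS. Blvrb, a biliverdin reductase that acts after haem oxygenase, had 80.9 ± 26.7 CPM in HAMSA and 53.2 ± 14.3 in HAMSB (SD, n = 4 libraries each; log2 fold change 0.6 ± 0.22, edgeR adjusted p 0.189). Spi1, which encodes PU.1, had 128 ± 17.1 CPM in HAMSA and 93.9 ± 11.9 in HAMSB (0.45 ± 0.14, 0.143). Nqo1, a quinone reductase, had 1.03 ± 0.495 CPM in HAMSA, 0.807 ± 0.689 in HAMSB and 0.189 ± 0.0475 in HAMS, with log2 fold changes over HAMS of 2.44 ± 0.63 (edgeR adjusted p 0.3) and 2.08 ± 0.61 (0.119). Fcgr4, an Fc receptor, had 2.05 ± 0.463 CPM in HAMSA, 1.84 ± 1.47 in HAMSB and 0.674 ± 0.277 in HAMS, with 1.6 ± 0.48 (0.3) and 1.44 ± 0.47 (0.164). Each had the smallest p of its list in the comparisons given and did not pass. Others with 1 of the 2 smallest p in a comparison included Fth1, Slc11a2, Hp, Cebpa, Irf8, Csf1, Cybb, Lgals3 and Clec7a, with edgeR adjusted p of 0.209 to 0.46.

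Against NP, the medians of the haem and iron genes and of the surface and lysosome genes lay nearer to 0 than those of the red pulp members. Of the 21 haem and iron genes edgeR called 0 in any comparison with NP, beside 0.806% of all genes lower and 0.606% higher in HAMSA, 0.0732% and 0% in HAMSB, and 2.06% and 2.27% in HAMS. Their median log2 fold changes were 0.08 in HAMSA, 0 in HAMSB and −0.07 in HAMS. Of the 22 surface and lysosome genes 0 were called either, with medians of −0.06, −0.1 and −0.49.

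Markers of other cells were present in the same libraries and did not follow the macrophage genes in one direction. Summed T cell markers were 120 to 249 CPM in HAMSA, 100 to 302 in HAMSB and 70.7 to 160 in HAMS, against 76.8 to 110 CPM in NP. Lck averaged 63.7 CPM of a mean sum of 86.8 CPM in NP, where Cd3e averaged 1.2 CPM. Which cells the Lck RNA came from was not tested. The median log2 fold changes of the T cell markers over NP were 3, 3.17 and 1.64. Neutrophil markers summed to 80.6 to 332 CPM in HAMSA, 45 to 268 in HAMSB and 6.11 to 115 in HAMS, against 9.15 to 67 CPM in NP. Estimates over NP were higher for 10, 10 and 9 of 10 T cell markers and for 12 of 12 neutrophil markers in each diet, the side opposite to the red pulp genes. In HAMSA, 1 of 10 T cell markers (Lck), 1 of 12 neutrophil markers (Elane) and 1 of 8 NK cell markers (Ncr1) passed edgeR's test over NP, with adjusted p of 0.0477, 0.05 and 0.0477, and in HAMSB and HAMS 0 genes of these 3 lists did. Of all genes, 0.606% were called higher in HAMSA. Elane was under 0.05 only before rounding, and Eomes, with the same rounded value, did not pass. Elane averaged 0.0415 CPM in NP, and its HAMSA and NP libraries overlapped. The calls of Lck, Elane and Ncr1 were kept in 1, 1 and 2 of the 8 omissions of 1 library. NK cell markers summed to 13.5 to 32.7 CPM in HAMSA, 11.6 to 56 in HAMSB and 11.4 to 17 in HAMS, against 11.6 to 17.9 CPM in NP. Prf1, with a mean of 10.6 CPM, made up much of the NP sum and had estimates below NP in each diet. By gene, estimates were above NP for 7, 7 and 6 of 8 NK cell markers, with median log2 fold changes of 2.96, 2.99 and 1.21. Erythroid markers summed to 551 to 6430 CPM in HAMSA, 53.9 to 1540 in HAMSB and 40.3 to 124 in HAMS, against 88.2 to 1490 CPM in NP, and 11, 10 and 1 of 11 had estimates above NP. Platelet markers summed to 73.2 to 160 CPM in HAMSA, 68.4 to 172 in HAMSB and 101 to 235 in HAMS, against 63.6 to 185 in NP. Their estimates were below NP, the side of the red pulp genes, for 8, 8 and 2 of 8 markers.

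Dendritic cell and monocyte markers lay between these patterns. Dendritic cell markers summed to 62.4 to 81.9 CPM in HAMSA, 42.6 to 90 in HAMSB and 23.3 to 73.8 in HAMS, against 54.5 to 110 CPM in NP, with estimates below NP for 6, 7 and 8 of 8 genes. Monocyte markers summed to 56.1 to 90.8, 44.2 to 125 and 43.3 to 49.3 CPM, against 31.3 to 114 CPM in NP, with 3, 2 and 6 of 8 below NP. No marker of these lists was at 0 in all libraries. Stab2, a scavenger receptor of the sinus lining of the spleen, had 1.93 ± 0.655 CPM in HAMSA, 1.28 ± 0.977 in HAMSB and 1.11 ± 0.441 in HAMS, against 4.18 ± 1.47 CPM in NP (SD, n = 4 libraries each). Stab2 was lower in HAMS by edgeR (log2 fold change −1.9 ± 0.45, adjusted p 0.0269), a call lost without HAMS 4, HAMS 6, NP 1, NP 3 or NP 4, with adjusted p of 0.025 to 0.0951 over the omissions. The part that these other cells have in the levels of the macrophage genes was not tested.

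**Figure D4:**
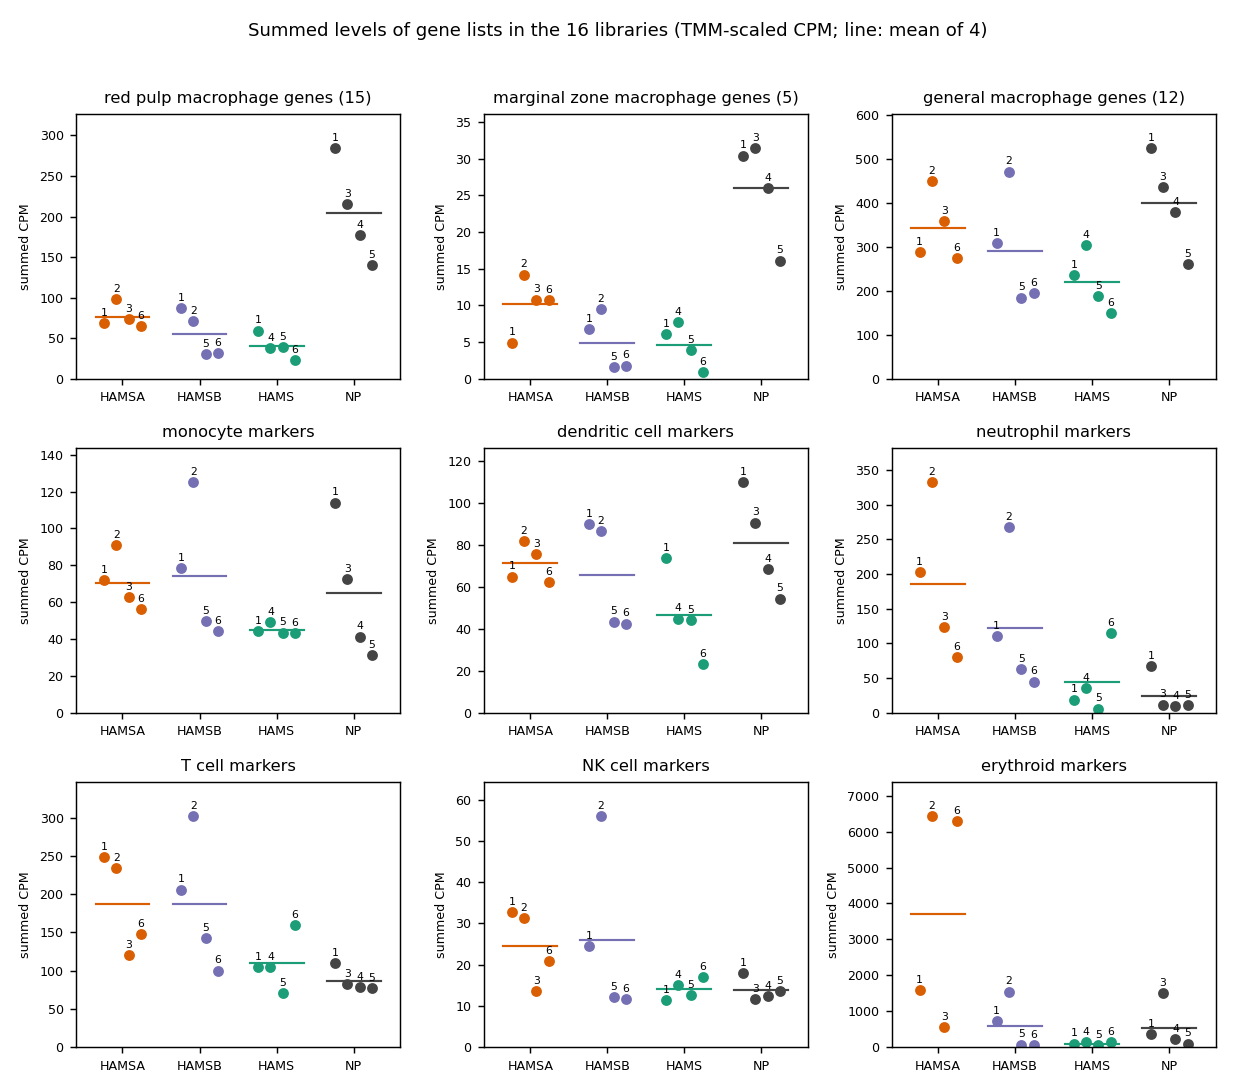
Summed level (y axis, TMM-scaled CPM, from 0) of the 3 groups of macrophage genes and of 6 lists of markers of other cells in each of the 16 libraries, by diet (x axis); numbers are the labels' replicate numbers and lines the mean of 4 libraries. The red pulp sums are 140 to 284 CPM in NP and at most 97.8 CPM elsewhere, while the means of neutrophil and T cell markers are highest in HAMSA and HAMSB.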

How the data were processed

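Poly(A) RNA of purified splenic B cells was sequenced from stranded libraries, 4 for each of 4 diets, per the labels' protocols. STAR, featureCounts of Subread, edgeR and limma were used, per the submitters' processing notes; versions, genome build and annotation release were not given in the sources used here. Unscaled read counts per gene and library were deposited by the authors, with summary rows for reads outside exons and reads left out because they fell on overlapping genes or on several places.

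Here, with R 4.3.3, edgeR 4.0.16 was run on the deposited counts of all 16 libraries, with the filter on expression at a minimum count of 10, TMM scaling, 1 mean a diet (12 residual degrees of freedom, 22.1% variation between libraries), quasi-likelihood tests and Benjamini-Hochberg adjustment over all 15021 genes. CPM are counts over the TMM-scaled totals of those genes. The SE is the size of the log2 fold change over the root of F. DESeq2 1.42.0 was an alternative, and the steps were tested on simulated counts. Positions and exon lengths come from GENCODE M21, and all 147 genes of the lists matched by ID.

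The members, lists and tests were chosen with earlier results of these data known. Genes were given library by library if among the 4 most abundant of their group, if separated from NP in 3 diets, or if they were Spic, Cd163, Hmox1, Slc40a1 or Vcam1; of the other lists, the genes past the test or, with none, those with the smallest p, apart from 1 gene that is not reported here. Replicate numbers were checked for pairing: among 15 pairs of libraries with the same number, 8 had a correlation of deviations above 0.1 (median 0.12, −0.43 to 0.63), so they were not taken as pairs.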

Additional observations from a re-analysis of the deposited data

Results flagged for a closer look

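In 5 of 124 groups of 4 libraries, 1 library stood far from the other 3 by Dixon's criterion; chance alone would give about 6.2. Marco was at 0.836 CPM in HAMSA 1, and at 2.29 to 2.33 CPM in the other HAMSA libraries. Siglec1 was at 2.56 CPM in HAMSB 2, and at 0.259 to 0.483 CPM in the other HAMSB libraries. Siglec1 was also at 1.11 CPM in HAMS 1, and at 0.129 to 0.254 CPM in the other HAMS libraries. Cd5l was at 1.29 CPM in HAMSA 1 with 2.89 to 3.13 CPM in the other HAMSA libraries, and at 3.15 CPM in NP 5 with 6.12 to 6.49 CPM in the other NP libraries. All 3 genes belong to the marginal zone group.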

How the results depend on the processing

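The count of members past the test stayed at 0 in each comparison among HAMSA, HAMSB and HAMS under every alternative run except DESeq2, which called 1 in each: Marco in HAMSA over HAMSB (log2 fold change 1.77, adjusted p 0.0454), Cd163 in HAMSA over HAMS (2.26, 0.0113) and Spic in HAMSB over HAMS (0.46, 0.0325). With a replicate block it was also 0, with medians of 0.79, 0.79 and 0.05. Leaving out 1 library gave 0 to 0 calls in these comparisons, and 22 to 25 (HAMSA), 23 to 26 (HAMSB) and 26 to 30 (HAMS) members wholly below NP. A filter of 1 CPM in 4 libraries left 28 members, of which 18, 20 and 22 were wholly below NP. No value of a member separated from NP changed direction. Low counts limit Hs3st2, Slc1a3, Dysf and Gpnmb, and HAMSA had the shallowest libraries.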
